A study of Rattus norvegicus with 10 samples.

Results

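Transcription factors of developmental and signal-dependent families were followed in lens capsules of rats kept in the cold. The 46 genes were chosen by name from the 3334 genes of the deposited RNA-seq table, as every symbol that begins with the stem of one of these families (such as Klf, Etv, Elk, Hey, Nfat, Smad, Tcf, Maf, Jun, Creb, Irf or Eya), without Hes1 and Hsf4. The name stem also took in Eya1, Eya3 and Eya4 (coactivators of sine oculis homeobox proteins), Crebrf (a regulator of CREB3) and Gatad1 (a chromatin protein with a GATA-type zinc finger), which are not DNA-binding factors of the classical kind. Each sample came from 1 male Sprague-Dawley rat, 6 weeks old, with the capsules of both lenses pooled, and no genetic change was made in either group. In the Hypothermia Group (5 rats) the isolated lens was held at 4°C in Hibernate-A medium for 8 h before the capsule was peeled off, and in the Normal Group (5 rats) the capsule was taken straight after euthanasia. The Normal lenses were not kept in the medium, so cold, medium and 8 h outside the eye cannot be told apart. The comparison asks which regulators differed in RNA level between these conditions.

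The transcription factors of these families translate signals into gene programmes. ETS factors such as Elk1 act downstream of MAP kinases, NFAT factors of calcium, SMAD factors of TGF-beta, TCF factors of Wnt, and HES and HEY repressors of Notch. In the lens, Notch and FGF signals balance the dividing epithelium against fibre cells, and the large MAF protein c-Maf drives crystallin genes as fibres form.

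The listed genes summed to between 4792595 and 12415121 counts per rat, which is a part of each library. The table held changed genes only, since the smallest difference between group means of normalized counts in it was 0.25 on the log2 scale. A call on such a list therefore shows the size and stability of a change and not that a family was affected more often than others. Counts were divided by the authors' size factors (0.744 to 0.980 in the Hypothermia Group, 1.08 to 1.26 in the Normal Group) to give normalized counts, and all log2 fold changes are Hypothermia over Normal. Genes with an adjusted p under 0.05 from edgeR's quasi-likelihood test, adjusted as for 17000 genes, are named as called. The 22 listed lens fibre markers (crystallins, Mip, Lim2, Bfsp1, Bfsp2 and others), of 24 sought, summed to an FPKM of 372250 to 798494 in the Hypothermia Group and 52833 to 262233 in the Normal Group. Of these markers 21 were called higher (52.3% of all tested genes were). Of 11 lens epithelium markers 3 were listed. Pax6 was called lower (-0.26, adjusted p = 0.0498 from edgeR), Cryaa, which fibres also express, was called higher (1.70, adjusted p = 0.0236 from edgeR), and Gja1 was not called (-0.43, adjusted p = 0.0567 from edgeR). In capsules measured in bulk, fewer cells of a type and less RNA per cell cannot be told apart.

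Most of the factors had lower RNA in the cold. Of the 46 genes, 44 had enough counts to be tested. Their log2 fold change was below 0 for 33 and above 0 for 11. Called lower were 20 (45.5%, where 20.5% of all 3222 tested genes were), and called higher were 8 (18.2%, where 52.3% of all tested genes were). In either direction 28 were called (63.6%, where 72.9% of all tested genes were). The median log2 fold change of the 44 genes was -0.33, and that of all tested genes was 0.36. The changes were small. With edgeR, Eya4 alone passed the study's threshold of a log2 fold change above 1 (1 of 44 called higher past it, where 10.3% of all tested genes were). Over all 46 genes, 2 were called higher past it with DESeq2 and 2 with edgeR without its filter on low counts. Below -1 the count of called genes was 0 with edgeR (1.89% of all tested genes) and 2 at an unadjusted p under 0.05. Over all 46 genes it was 3 with DESeq2 on the same size factors. At any fold change and in either direction, DESeq2 called 2938 of 3334 genes. Shares of all genes past 1 or -1 are not given for the unadjusted, DESeq2 and unfiltered counts, which therefore have no background here. The groups did not overlap for 19 of the 44 genes (43.2%, where 58.5% of all tested genes did not). This held for 15 of the tested genes in the lower direction (16.7% of all tested genes) and for 4 in the higher direction (41.9% of all tested genes).

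**Figure D1:**
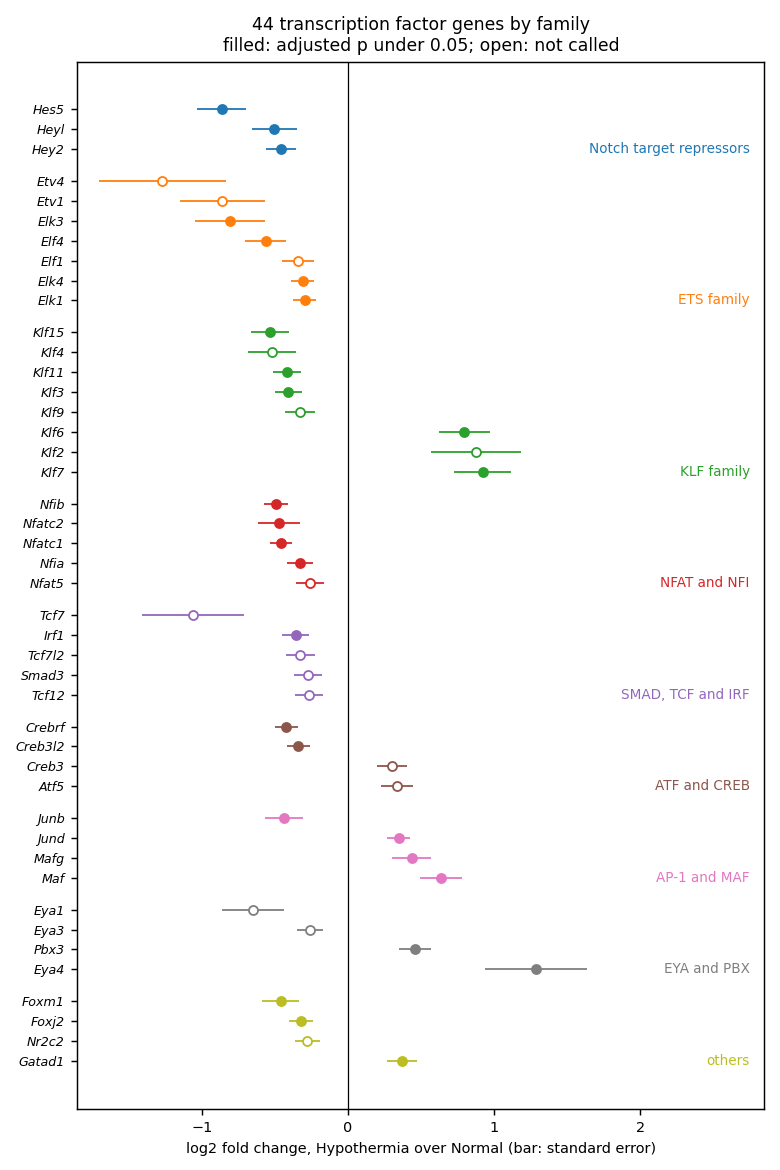
Log2 fold changes (Hypothermia over Normal, x axis) of the 44 tested genes, grouped by family, with the standard error as a bar. Filled points are called at an adjusted p under 0.05 and open points are not. The value is below 0 for 33 of the 44 genes, among them all 7 tested ETS genes.

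**Figure D2:**
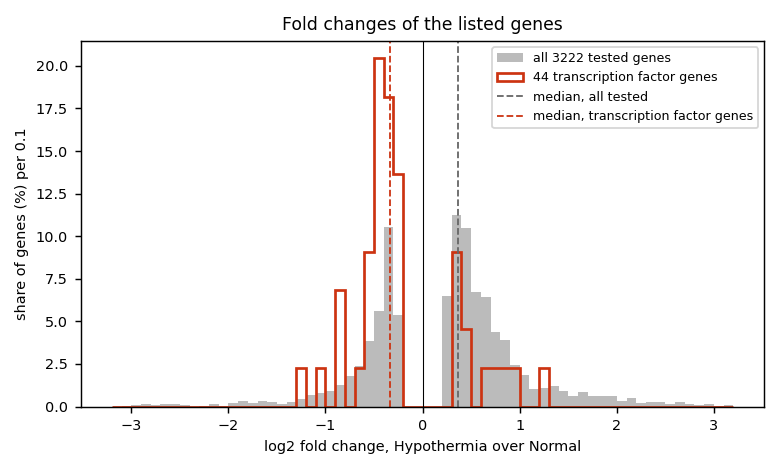
Share of genes in bins of 0.1 (y axis, %) by log2 fold change (x axis), for all 3222 tested genes in grey and the 44 transcription factor genes as a red outline. Dashed lines are the medians, 0.36 and -0.33, and the gap around 0 reflects a table that holds changed genes only.

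The values of the genes above 0 depended on the scaling. The 3 other scalings all moved fold changes downward, so they could not turn a gene below 0 and do not bear on the stability of the lower genes. With TMM factors computed on the listed genes, log2 fold changes of all tested genes moved by a median of -0.29, the median of the 44 genes was -0.61 and that of all tested genes 0.07. Below 0 were 33 of the 44 with TMM factors, as with the authors' size factors, 34 with median-of-ratios factors and 43 with the listed-gene totals. The totals moved all tested genes by a median of -1.23, so signs that turned there are no test of these genes. Eya4 was the gene that stayed above 0 with the totals, a scaling under which the median of all tested genes was -0.87. With TMM factors and adjustment over the tested genes alone, 37 were called (68.5% of all tested genes), 4 of them higher (32.2% of all tested genes) and 33 lower (36.3% of all tested genes). Past a log2 fold change of 1 or -1 this gave 1 called higher (7.76% of all tested genes) and 5 called lower (8.38% of all tested genes).

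Gene length moved with these directions. The length given in the table had a median of 3876.5 bases over all tested genes called lower and 1590.5 bases over those called higher. For the transcription factors the medians were 3501 bases (20 called lower) and 1857.5 bases (8 called higher). Among tested genes of 2192 bases or more, 28 of the 31 transcription factors (90.3%) were below 0, where 58.2% of all 1611 such genes were. Among shorter genes, 5 of the 13 (38.5%) were below 0, where 14.3% of all 1611 were. The part of length, and of RNA quality with it, in these differences was not tested. Those called lower among the shorter genes were Hes5, the shortest of the 44 at 592 bases, Junb (1783 bases) and Irf1 (2047 bases).

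**Figure D3:**
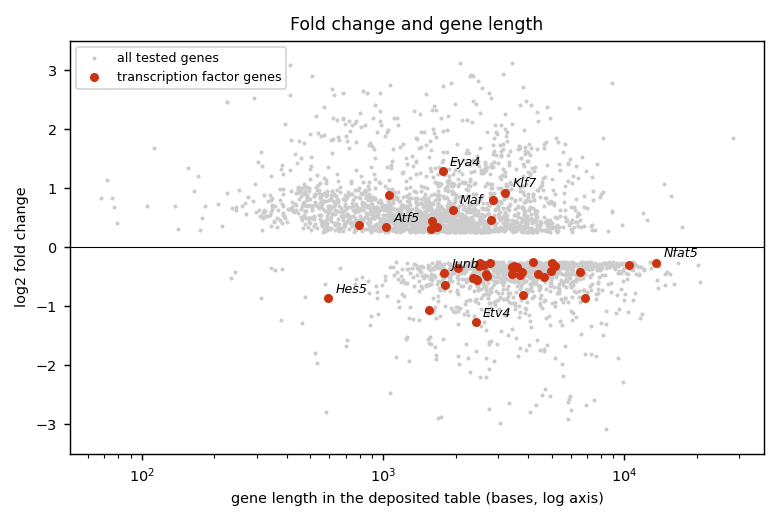
Log2 fold change (y axis) against gene length (x axis, bases, log scale) for all tested genes in grey and the 44 transcription factor genes in red. Genes below 0 are longer (median 3644 bases over all tested genes) than those above 0 (median 1628 bases).

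The Notch target repressors were lower throughout. Hes5, Hey2 and Heyl encode bHLH repressors that Notch switches on through the DNA-binding factor RBPJ, and all 3 were called lower (20.5% of all tested genes were). Hes5 (chromosome 5 of Rnor_6.0, 172364421 to 172365188) had normalized counts of 88.0, 73.2, 67.8, 90.8 and 60.5 in Hypothermia rats 1 to 5 and of 164, 148, 132, 106 and 145 in Normal rats 1 to 5. Every Hypothermia rat lay below every Normal rat. Its log2 fold change was -0.86 (standard error 0.17, adjusted p = 0.00797 from edgeR). The adjusted p was at most 0.0237 when any single rat was dropped. Hey2 (chromosome 1, 29191192 to 29201531), which is linked to vessel and heart development, had 249.6, 241, 272, 242 and 218 against 349.6, 379, 374, 292 and 286. The groups did not overlap, and the log2 fold change was -0.46 (standard error 0.10, adjusted p = 0.0144 from edgeR). Heyl, a related repressor found in vascular cells, had 101, 136, 99.2, 119 and 91.4 against 197, 155, 145, 132 and 148. For Heyl the groups overlapped, since Hypothermia replicate 2 was above Normal replicate 4. Its log2 fold change was -0.50 (standard error 0.15, adjusted p = 0.0471 from edgeR), and it kept its call only without Hypothermia replicate 2, with adjusted p-values up to 0.110 over the other 9 such fits. Upstream of them, Rbpj (-0.30, adjusted p = 0.00926 from edgeR) and Notch1 (-0.40, adjusted p = 0.0359 from edgeR) were called lower, and Notch2 was not called (-0.46, adjusted p = 0.0727 from edgeR).

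The promoters of these repressors are shown because their genes were all called lower and RBPJ, through which Notch acts, has a known site. The part of RBPJ in their lower RNA was not tested. Of the 46 symbols, 39 were found in the RefSeq promoter table (build GRCr8), and the 250 bases before the gene start were read for each. The RBPJ motif searched was GTGGGAA, on both strands (TTCCCAC on the other), and capitals mark its matches. It occurred in 5.27% of all 33469 promoter windows and in 4 of the 42 windows of these genes, those of Hes5, Hey2, Creb3 and Hif3a. Hes5 (chr5:170804327-170804576, plus strand) had 2 matches, which begin 242 and 99 bases before the start. Hey2 (chr1:28640850-28641099, plus strand) had 1, beginning 61 bases before the start, and the window of Heyl (chr5:140793021-140793270, plus strand) holds no such letters.
Hes5: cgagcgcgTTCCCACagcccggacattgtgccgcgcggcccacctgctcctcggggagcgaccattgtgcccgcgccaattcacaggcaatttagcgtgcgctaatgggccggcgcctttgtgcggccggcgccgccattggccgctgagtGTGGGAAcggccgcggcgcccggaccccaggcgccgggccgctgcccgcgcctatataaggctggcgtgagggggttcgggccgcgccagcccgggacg
Hey2: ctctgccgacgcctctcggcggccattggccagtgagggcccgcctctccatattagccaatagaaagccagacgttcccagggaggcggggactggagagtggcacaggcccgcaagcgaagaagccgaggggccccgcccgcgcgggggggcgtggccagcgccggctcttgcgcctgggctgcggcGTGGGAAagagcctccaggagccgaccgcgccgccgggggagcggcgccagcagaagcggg
Heyl: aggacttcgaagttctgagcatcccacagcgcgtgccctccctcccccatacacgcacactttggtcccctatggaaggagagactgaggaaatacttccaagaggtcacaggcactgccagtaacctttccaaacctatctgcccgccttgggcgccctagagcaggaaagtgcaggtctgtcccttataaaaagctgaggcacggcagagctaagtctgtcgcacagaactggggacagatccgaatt

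ETS factors were the largest family with a common direction among tested members, with all 7 below 0 (36.3% of all tested genes were). All 7 were 2192 bases or longer, and of all tested genes of such length 58.2% were below 0. Of these 7, 4 were called lower (20.5% of all tested genes were), and Etv3l, too scarce for the test, was higher. Elk1, Elk3 and Elk4 are the ternary complex factors, which sit with SRF on promoters and are activated by MAP kinases, and each was called lower. Elk4 (chromosome 13, 48790509 to 48813260) had normalized counts of 846, 854, 698, 727 and 754 in the Hypothermia Group and of 923, 979, 919.7, 1016 and 972 in the Normal Group. The groups did not overlap, and its log2 fold change was -0.31 (standard error 0.08, adjusted p = 0.0216 from edgeR). Elk1 (chromosome X, 1297099 to 1304822) had 313, 349, 351, 345 and 345 against 363, 398, 457, 433 and 442. This gave a log2 fold change of -0.30 (standard error 0.08, adjusted p = 0.0296 from edgeR), also without overlap. Elk3, which can act as a repressor, was scarce at 28.6 to 55.5 against 51.7 to 80.6, and had a log2 fold change of -0.81 (standard error 0.24, adjusted p = 0.0422 from edgeR). Hypothermia replicate 1 lay above 2 of the Normal rats for Elk3. Elf4, an ETS factor known from blood cells, was called lower (-0.56, standard error 0.14, adjusted p = 0.0233 from edgeR), while the related Elf1 was not (-0.34, standard error 0.11, adjusted p = 0.0633 from edgeR).

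Etv1 and Etv4 belong to the PEA3 subfamily, which answers to FGF signalling, and neither was called although their fold changes were large. Etv4 (chromosome 10, 89685058 to 89700283) had 59.1, 19.9, 35.1, 25.5 and 17.5 in the Hypothermia Group and 43.5, 66.3, 32.6, 112 and 124.5 in the Normal Group. Normal replicates 4 and 5 stood high and Normal replicates 1 and 3 lay within the Hypothermia values. The log2 fold change was -1.27 (standard error 0.44, adjusted p = 0.0809 from edgeR). Etv1 had 319.5, 213, 387, 208 and 207 against 498, 469, 243, 426 and 784, with the highest value in Normal replicate 5. Its log2 fold change was -0.86 (standard error 0.29, adjusted p = 0.0812 from edgeR). Etv3l, an ETS gene near the limit of counting, had normalized counts of 3.14 to 12.1 in the Hypothermia Group, against 0.800 to 2.77 in the Normal Group, and was below the filter of the test. Without that filter it was called higher (adjusted p = 0.0269 from edgeR), with raw counts of 1 to 9 per rat. In the fixed list of the FGF, MAP kinase and ETS pathway, 11 of 25 genes were listed, 4 called higher and 4 lower (52.3% and 20.5% of all tested genes were). The feedback inhibitors Spry1 (1.38) and Spry2 (0.97) and the kinases Mapk3 (0.53) and Map2k2 (0.43) were called higher, while the MAP kinase phosphatase Dusp6 was called lower (-1.61, adjusted p = 0.0195 from edgeR) like the 3 Elk genes.

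Members of the Krüppel-like factor family, zinc finger proteins that bind GC-rich promoters, were split between the directions. Klf3, Klf11 and Klf15 were called lower (20.5% of all tested genes were). Klf6 and Klf7 were called higher with the authors' size factors (52.3% of all tested genes were). With TMM factors Klf6 was 0.50 and not called (adjusted p = 0.0566 from edgeR). The listed-gene totals, which moved all tested genes by a median of -1.23, gave -0.45 for Klf6 and -0.28 for Klf7. Klf7 (chromosome 9, 70740480 to 70787913), known from neuronal development, had normalized counts of 156, 141, 199.6, 129.6 and 163 in the Hypothermia Group and of 97.1, 102, 54.9, 67.2 and 94.3 in the Normal Group. Its groups did not overlap, and the log2 fold change was 0.92 (standard error 0.20, adjusted p = 0.0106 from edgeR). Klf6 (chromosome 17, 67887939 to 67945037), an injury-induced factor, had 225.5, 169, 286, 202 and 271 against 154, 116, 97.9, 137 and 160.2. It did not overlap between the groups either and had a log2 fold change of 0.80 (standard error 0.17, adjusted p = 0.0125 from edgeR). Both kept their calls in all 10 fits that left out 1 rat. Klf2, best known from endothelium, had the same sign at 36.3 to 107 against 25.5 to 50.3 normalized counts, with overlap and no call (0.88, standard error 0.31, adjusted p = 0.0869 from edgeR).

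On the lower side, the repressor Klf3 (chromosome 14, 45142769 to 45165207) had 395.5, 479.8, 387, 338 and 412.5 against 523, 531, 523, 577 and 513.5. It had a log2 fold change of -0.41 (standard error 0.09, adjusted p = 0.0132 from edgeR) without overlap. Klf11, which takes part in TGF-beta responses, had 274 to 328 against 332 to 439 and a log2 fold change of -0.42 (standard error 0.09, adjusted p = 0.0139 from edgeR), also without overlap. Klf15, a glucocorticoid-induced metabolic regulator, was the most abundant KLF gene per length, with a mean FPKM of 7.65 in Hypothermia rats and 11.1 in Normal rats. Its normalized counts were 309 ± 46.8 (SD, n = 5) and 447 ± 68.5 (SD, n = 5), respectively. Its groups touched, since Hypothermia replicate 5 was above Normal replicate 1, and the log2 fold change was -0.53 (standard error 0.13, adjusted p = 0.0200 from edgeR). That call was lost without Hypothermia replicate 4, Normal replicate 4 or Normal replicate 5, with adjusted p-values up to 0.0545. Klf4 (-0.52, adjusted p = 0.0566 from edgeR), a barrier and reprogramming factor, and Klf9 (-0.32, adjusted p = 0.0558 from edgeR), another glucocorticoid target, were not called. Within each rat the ratio of Klf6 to Klf3 counts, which no scaling can alter, averaged 0.584 ± 0.145 (SD, n = 5) for Hypothermia rats and 0.250 ± 0.0521 (SD, n = 5) for Normal rats. This pair and the other pairs below were picked after their values had been seen, so the ratios are a description.

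The AP-1 and MAF genes held the most abundant transcripts of all 46. Jund, a JUN protein present in resting cells, had the FPKM values 128 ± 6.65 (SD, n = 5) and 101 ± 6.04 (SD, n = 5) in the Hypothermia and Normal Groups, and Maf had 134 ± 27.1 (SD, n = 5) and 86.0 ± 11.3 (SD, n = 5). Jund (chromosome 16, 20485029 to 20486707) had normalized counts of 3275, 3675, 3603, 3764 and 3623 in the Hypothermia Group and of 2608, 2787, 3060, 2895 and 2753 in the Normal Group. The groups did not overlap. Its log2 fold change was 0.35 (standard error 0.08, adjusted p = 0.0125 from edgeR), and it was 0.06 with TMM factors and -0.90 with the listed-gene totals. Junb (chromosome 19, 26092974 to 26094756), the growth-factor-induced JUN protein, had 152, 155, 128, 132 and 141 against 144, 223, 204.5, 203 and 182. All Hypothermia rats but replicates 1 and 2 lay below every Normal rat, and Normal replicate 1 lay among them. Junb had a log2 fold change of -0.44 (standard error 0.13, adjusted p = 0.0427 from edgeR). It was called in 2 of the 10 fits with 1 rat left out, those without Hypothermia replicate 2 and without Normal replicate 1. Each Junb count was matched by 25.5 ± 2.96 (SD, n = 5) Jund counts in Hypothermia rats and by 15.0 ± 2.02 (SD, n = 5) in Normal rats, with no overlap of this scale-free ratio.

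The promoters of this pair are printed because JUN genes are themselves targets of CREB and AP-1 proteins. The cAMP response element searched was TGACGTCA, which reads the same on both strands, and capitals mark it. It occurred in 1.59% of all 33469 windows and, of the 42 windows of these genes, in that of Jund alone. In Jund (chr16:18769772-18770021, minus strand) the match begins 221 bases before the start, and the window of Junb (chr19:40080876-40081125, plus strand) has no match.
Jund: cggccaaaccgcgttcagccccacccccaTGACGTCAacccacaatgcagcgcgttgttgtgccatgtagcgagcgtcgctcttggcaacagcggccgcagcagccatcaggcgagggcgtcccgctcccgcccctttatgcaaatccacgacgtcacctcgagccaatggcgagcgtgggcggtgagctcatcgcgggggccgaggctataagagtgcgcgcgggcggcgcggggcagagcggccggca
Junb: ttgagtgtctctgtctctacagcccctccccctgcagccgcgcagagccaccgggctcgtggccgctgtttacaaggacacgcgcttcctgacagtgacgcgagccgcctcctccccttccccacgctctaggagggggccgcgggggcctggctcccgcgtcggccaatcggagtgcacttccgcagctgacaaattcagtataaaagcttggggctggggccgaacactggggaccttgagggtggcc

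Maf, which encodes the c-Maf activator of crystallin genes, lies on chromosome 19 (48194804 to 48196748). It had normalized counts of 4535, 3407, 5718, 3871 and 4112 in the Hypothermia Group and of 3109, 3098, 2334, 2452 and 2922 in the Normal Group. Every Hypothermia rat was above every Normal rat, and the log2 fold change was 0.64 (standard error 0.14, adjusted p = 0.0134 from edgeR), with 0.34 under TMM factors and -0.59 with the listed-gene totals. Maf was highest in Hypothermia replicate 3 and lowest in Normal replicate 3, and the summed fibre markers were second highest and lowest in these same rats, at FPKM sums of 640378 and 52833. The part of fibre cells in the higher Maf was not tested. Mafg, a small MAF protein that pairs with larger bZIP proteins, had 924, 667, 1073, 748 and 758 against 624, 686, 517, 569 and 685, with overlap. Its log2 fold change was 0.44 (standard error 0.13, adjusted p = 0.0481 from edgeR). Mafg was still called only without Hypothermia replicate 2, with adjusted p-values up to 0.117 over the other 9 such fits.

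**Figure D4:**
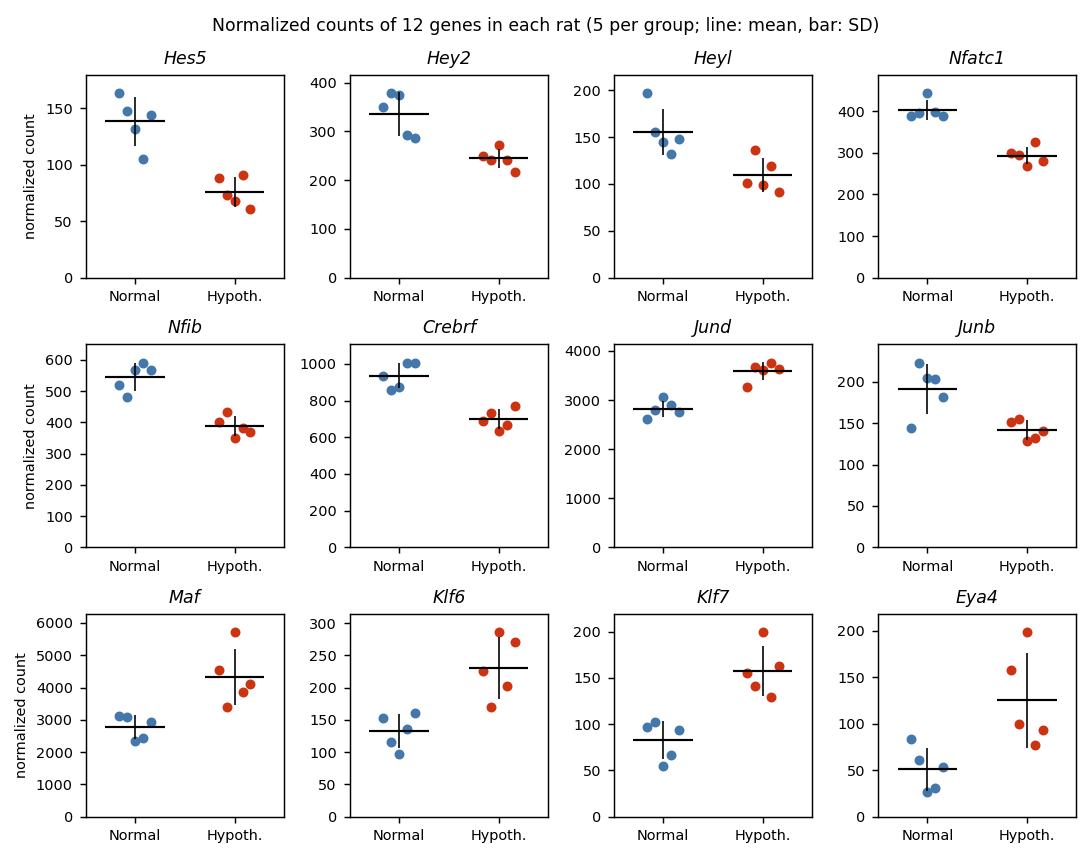
Normalized counts (y axis, from 0) of 12 genes in each of the 5 Normal rats (blue) and 5 Hypothermia rats (red), with the mean as a line and the SD as a bar. The groups are apart for Hes5, Hey2, Nfatc1, Nfib, Crebrf, Jund, Maf, Klf6 and Klf7, and overlap for Heyl, Junb and Eya4.

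Of the 4 ATF and CREB genes, Crebrf and Creb3l2 were called lower and none was called higher (20.5% and 52.3% of all tested genes were). Creb3 and Creb3l2 encode factors held in the endoplasmic reticulum or Golgi membrane until they are cleaved, and Crebrf restrains CREB3. Crebrf (chromosome 10, 16694792 to 16752205) had 688.5, 733, 636, 667.5 and 771 in the Hypothermia Group and 936, 859, 876, 1004 and 1008 in the Normal Group. The groups did not overlap, and Crebrf had a log2 fold change of -0.42 (standard error 0.08, adjusted p = 0.00724 from edgeR). Creb3l2 (chromosome 4, 64869026 to 64981384) had 1053, 1217, 1085, 1140 and 1201 against 1345, 1288, 1540, 1526 and 1502. It too was without overlap, at -0.34 (standard error 0.08, adjusted p = 0.0161 from edgeR). Creb3 was not called (0.30, standard error 0.10, adjusted p = 0.0754 from edgeR), and it was -0.02 with median-of-ratios factors and -0.97 with the listed-gene totals. Counts of Creb3 per count of Crebrf averaged 1.28 ± 0.263 (SD, n = 5) for Hypothermia rats and 0.772 ± 0.0525 (SD, n = 5) for Normal rats, without overlap.

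Atf5, a bZIP factor of the amino acid and mitochondrial stress responses, was abundant. Its FPKM was 57.4 ± 4.48 (SD, n = 5) in the cold and 45.4 ± 6.70 (SD, n = 5) without it, and Atf5 was not called (0.34, standard error 0.11, adjusted p = 0.0579 from edgeR). In the fixed list of 33 genes of the amino acid and endoplasmic reticulum stress responses 8 were listed and 7 tested. Of these, 5 were called higher (52.3% of all tested genes were), namely Asns (1.65), Mthfd2 (1.29), Shmt2 (1.06), Sars (1.03) and Eif4ebp1 (0.93), with adjusted p-values of 0.00459 to 0.0264 (edgeR). They make asparagine, one-carbon units and charged serine tRNA or hold back translation initiation. Ddit4, an inhibitor of mTORC1, was called lower (-0.46, adjusted p = 0.0115 from edgeR). In the list of 20 CREB and cAMP genes 4 were listed, and Creb3l2 was the one called (20.5% of all tested genes were called lower).

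NFAT and NFI genes were all below 0 (36.3% of all tested genes were), and 4 of the 5 were called lower (20.5% of all tested genes were). All 5 were 2192 bases or longer, and of all tested genes of such length 58.2% were below 0. Nfatc1 (chromosome 18, 77203525 to 77322690), a calcineurin-dependent factor, had 299, 294, 269, 326 and 281 in the Hypothermia Group against 388.5, 395, 444, 399 and 388 in the Normal Group. The groups did not overlap, and the log2 fold change of -0.46 (standard error 0.08, adjusted p = 0.00557 from edgeR) had the smallest adjusted p of the 44 genes. Nfib (chromosome 5, 100439082 to 100647727), a factor of progenitor and epithelial development, had 401.5, 435, 349, 382 and 371 against 521, 480.2, 566.5, 592 and 567. It also did not overlap, at a log2 fold change of -0.49 (standard error 0.08, adjusted p = 0.00573 from edgeR). Both calls held in all 10 fits with 1 rat left out. Nfatc2 (-0.47, standard error 0.14, adjusted p = 0.0479 from edgeR) was without overlap but kept its call only without Hypothermia replicate 5, with adjusted p-values up to 0.116 over the other 9 such fits. Nfia, the partner of Nfib in many tissues, had -0.33 (standard error 0.09, adjusted p = 0.0295 from edgeR) and overlapped. Nfat5, the factor of the response to high salt, was the one not called (-0.26, standard error 0.09, adjusted p = 0.0992 from edgeR).

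Among effectors of other pathways, Irf1 was the one of 5 genes to be called. It was lower, a share close to the 20.5% of all tested genes called lower. Irf1 (chromosome 10, 39109522 to 39116531), an interferon-induced activator, had 254, 256, 231, 232 and 214 against 289.5, 334, 316, 322 and 259. The lowest Normal rat was above the highest Hypothermia rat by less than 3 normalized counts, and Irf1 had a log2 fold change of -0.36 (standard error 0.09, adjusted p = 0.0251 from edgeR). Of the interferon and JAK-STAT list 5 of 30 genes were listed, 4 called lower and 1 higher (20.5% and 52.3% of all tested genes were). Besides Irf1, those called lower were Ifngr1 (-0.31), Jak2 (-0.27) and the inhibitor Socs3 (-0.57), while Ifngr2 was called higher (0.26). Smad3, the TGF-beta effector, had FPKM values of 24.4 ± 2.53 (SD, n = 5) in the cold and 29.5 ± 2.64 (SD, n = 5) without it, and was not called (-0.27, standard error 0.09, adjusted p = 0.0830 from edgeR). In the TGF-beta and BMP list the SMAD antagonists Ski (-0.38, adjusted p = 0.0231 from edgeR) and Smurf1 (-0.45, adjusted p = 0.0175 from edgeR) were called lower. Tcf7l2, the main Wnt effector of epithelia, had no overlap and no call (-0.32, standard error 0.10, adjusted p = 0.0552 from edgeR).

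Tcf7, a Wnt effector best known from T cells, had 25.3, 23.0, 11.3, 14.3 and 36.3 against 38.8, 34.4, 30.2, 63.2 and 62.2, with Normal replicates 4 and 5 on top. It was not called (-1.06, standard error 0.35, adjusted p = 0.0686 from edgeR). Tcf12, which is an E protein and no Wnt effector despite its name, was not called either (-0.27, adjusted p = 0.0989 from edgeR). Of 30 Wnt and TCF genes 11 were listed, and 4 were called higher and 3 lower (52.3% and 20.5% of all tested genes were). The ligands Wnt7a (2.93), Wnt5b (2.70) and Wnt7b (0.45) and the secreted inhibitor Sfrp1 (0.62) were higher, and Wnt5a (-0.64), the coreceptor Lrp5 (-0.42) and the feedback target Axin2 (-0.45) were lower.

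The EYA coactivators, phosphatases that join sine oculis homeobox proteins in eye development, had 1 called member, Eya4. It was higher (52.3% of all tested genes were called higher). Eya4 (chromosome 1, 23409408 to 23610164) had 158, 99.3, 198, 76.5 and 92.7 in the Hypothermia Group and 83.2, 61.4, 27.1, 31.2 and 53.1 in the Normal Group. Normal replicate 1 lay above Hypothermia replicate 4, so the groups overlapped. Eya4 had the highest log2 fold change of the 44 tested genes (1.29, standard error 0.35, adjusted p = 0.0316 from edgeR). Adjusted as for 17000 genes, it was not called under the other scalings, with 1.01 for TMM factors (adjusted p = 0.0806 from edgeR, or 0.0153 when adjusted over the tested genes alone), 0.99 for median-of-ratios factors (adjusted p = 0.0840 from edgeR) and 0.14 for the listed-gene totals (adjusted p = 1 from edgeR). Its call was lost without Hypothermia replicate 1, Hypothermia replicate 3, Normal replicate 3, Normal replicate 4 or Normal replicate 5, with adjusted p-values up to 0.0866. Eya1 had 41.4 to 65.8 against 59.7 to 116 and was not called (-0.65, standard error 0.21, adjusted p = 0.0631 from edgeR), and Eya3 was not called either (-0.26, adjusted p = 0.0882 from edgeR). For each Eya1 count there were 2.42 ± 1.45 (SD, n = 5) Eya4 counts in Hypothermia rats and 0.635 ± 0.360 (SD, n = 5) in Normal rats, without overlap. The lowest Eya4 value was that of Normal replicate 3, which also had the lowest sum of fibre markers, and Normal replicate 1 was the highest Normal rat for both. The Hypothermia rats did not follow this order, since replicate 5, with the highest fibre sum, had less Eya4 (92.7) than replicate 2, with the lowest (99.3). The part of fibre cells in the Eya4 values was not tested. Pbx3, a homeodomain partner of HOX and MEIS proteins, had 1211, 1129, 979, 981 and 1161 against 998, 769, 792, 681 and 734. It was called higher (0.46, standard error 0.11, adjusted p = 0.0178 from edgeR). Pbx3 was 0.18 with TMM factors and 0.16 with median-of-ratios factors, and not called with either. It was -0.75 with the listed-gene totals, which moved all tested genes by a median of -1.23.

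Of the 31 lens development regulators fixed as a list, 13 were listed and 12 tested, with 3 called higher (52.3% of all tested genes were) and 6 lower (20.5% of all tested genes were). Maf, Mafg and Pitx3 (0.34), a homeobox gene of lens formation, were higher, and Nfia, Nfib, Hey2, Pax6, Notch1 and Rbpj were lower. The list's median log2 fold change was -0.37, where that of all tested genes was 0.36.

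Of the remaining genes, Foxm1, the activator of mitotic genes, had 112, 143, 174.5, 165 and 129 against 214, 208, 193, 197 and 186. It did not overlap and had a log2 fold change of -0.46 (standard error 0.13, adjusted p = 0.0325 from edgeR). The call for Foxm1 held in 2 of the 10 fits with 1 rat left out, those without Hypothermia replicate 3 or Hypothermia replicate 4. Foxj2, a forkhead activator, was called lower as well (-0.32, standard error 0.08, adjusted p = 0.0248 from edgeR), and Nr2c2, an orphan nuclear receptor, was not called (-0.28, standard error 0.09, adjusted p = 0.0525 from edgeR). Gatad1 was called higher (0.37, standard error 0.10, adjusted p = 0.0346 from edgeR). It was 0.08 with TMM factors and -0.86 with the listed-gene totals. Hif3a, a hypoxia-inducible factor subunit, was below the filter, with 10.9, 3.14, 2.51, 6.12 and 9.40 in the Hypothermia Group and 20.3, 4.91, 7.16, 45.6 and 50.3 in the Normal Group. The high Hif3a values were those of Normal replicates 4 and 5, and without the filter it was not called (adjusted p = 0.0791 from edgeR). Of the hypoxia list 10 of 26 genes were listed, 4 called higher, among them Pgk1 (1.04) and Ndrg1 (1.75), and 2 lower. Of the 8 tested this is close to the 52.3% and 20.5% of all tested genes.

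Rats differed within the Normal Group in some of these genes and in markers of neighbouring tissue. Etv4, Tcf7, Eya1 and Hif3a were highest in Normal replicates 4 and 5. These were the rats with the highest summed FPKM of the 5 listed pigment and ciliary epithelium markers (of 10 sought), at 24.0 and 37.5, where the other Normal rats had 8.25 to 19.0 and the Hypothermia rats 5.11 to 10.4. Most of that sum was Mfrp, at 15.1 and 28.3 in these rats, and the defining pigment epithelium marker Rpe65 stayed under an FPKM of 1 in all 10 rats. The other markers of the list ordered the Normal rats in different ways. Rlbp1 was highest in Normal replicates 4 (5.24) and 5 (4.90), and Pmel was highest in Normal replicate 5 (3.59). Rpe65 was highest in Normal replicate 1 (0.725) and lowest in Normal replicate 5 (0.128), and Tyr was highest in Normal replicate 1 (0.663) and at 0.223 in Normal replicate 4. Without both of these rats the log2 fold change went from -1.27 to -0.60 for Etv4, from -1.06 to -0.65 for Tcf7 and from -0.65 to -0.42 for Eya1. These genes were named for being highest in the 2 rats left out, so smaller changes were set in advance. The part of such tissue in these values was not tested. With both of these rats left out, an alternative chosen after seeing the data, the count of called transcription factors was 0 (0 of all 3254 tested genes with edgeR), 39 of the 44 had an unadjusted p under 0.05, and 33 remained below 0. Of 8 fibroblast markers 1 was listed, Col1a1, at an FPKM of 0.142 to 0.659 in the Hypothermia Group and 0.363 to 5.51 in the Normal Group, and of 8 vascular and muscle markers 2 were listed, with sums of 2.25 to 3.52 and 3.49 to 15.0. None of the 10 immune and 10 photoreceptor markers sought was among the listed genes analysed here.

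**Figure D5:**
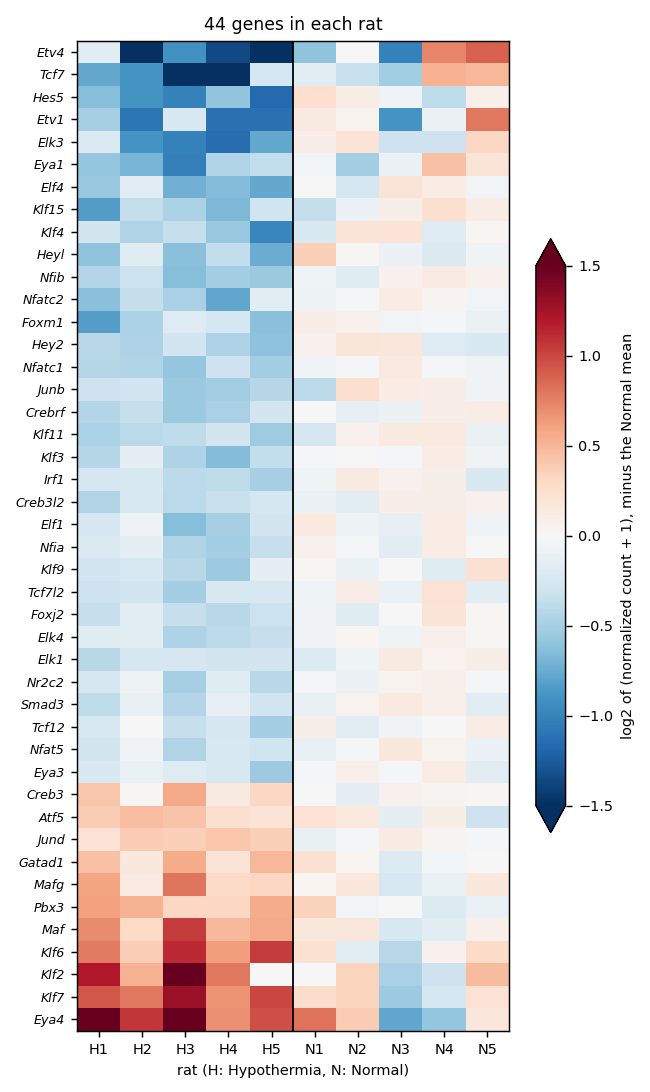
The 44 tested genes (rows, ordered by log2 fold change) in each rat (columns H1 to H5 and N1 to N5), coloured by the log2 of normalized count + 1 minus the Normal mean. Etv4 and Tcf7 are red in N4 and N5, and the genes at the bottom, from Maf to Eya4, are paler in H2 than in H3.

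The number of calls depended on single rats, for these genes and for all tested genes alike. With 1 rat left out, the count of 28 became 15 without Hypothermia replicate 3, 16 without Hypothermia replicate 4, 13 without Normal replicate 4 and 15 without Normal replicate 5, and 19 to 30 without any one of the others. In the same 4 fits the share called among all tested genes went from 72.9% to 46.1%, 54.6%, 42.6% and 46.7%. The table holds genes selected as changed in these same rats, so signs were unlikely to turn when 1 rat was left out. No log2 fold change of the 44 genes changed sign in these 10 fits. Of the 28 calls, 13 held in every one of them, those of Hes5, Hey2, Nfib, Nfatc1, Crebrf, Creb3l2, Klf3, Klf11, Klf6, Klf7, Jund, Maf and Pbx3. Elk3, Elf4, Elk1, Elk4, Irf1, Nfia, Foxj2 and Gatad1 lost theirs in 4 to 8 of the 10 fits, among them in each case the fit without Normal replicate 4, with adjusted p-values up to 0.107.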

How the data were processed

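RNA-seq of lens capsules from 5 Hypothermia and 5 Normal rats was analysed. Per the study's methods the authors aligned reads with HISAT2 2.0.5 to Rnor_6.0, counted them per gene with featureCounts 1.5.0-p3 and tested with DESeq2 1.16.1. The authors deposited 1 table of 3334 genes with whole-number counts per rat, FPKM per rat, a gene length in bases, and the mean normalized signal of each group. Columns with the authors' own test of the groups (fold change and significance) were not used.

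The table is a list of genes selected as changed, so nearly all tested genes (3221 of 3222) had an unadjusted p under 0.05, and shares called are read against that background. The authors' size factors were recovered from their group means by least squares (largest relative error 9.2e-10), and the deposited FPKM carry the same factors. Counts were tested with edgeR 4.0.16 in R 4.3.3 (filterByExpr, robust quasi-likelihood fit, both groups, no covariate). P-values were adjusted by Benjamini-Hochberg as for 17000 genes, a round number near the count of expressed genes, because unlisted genes were not analysed here. The call threshold was an adjusted p of 0.05, and a log2 fold change of 1 was the larger threshold. On simulated counts for 3334 genes, 200 were changed by a log2 fold change of 1 or -1 and the others left unchanged. Of the 200, 91.5% were recovered with 7 false calls, at p-values adjusted over the tested genes. The simulation held no smaller changes and no list of genes selected as changed. It therefore gives no recovery or false-call rate for the calls reported here.

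The 46 genes and the gene lists were chosen with earlier results of these data known. Genes named in full were those called past the larger threshold, up to 10 called genes without overlap in each direction (4 qualified as higher), the 2 most abundant of each family by FPKM, and members of the lists. Counts for the TGF-beta and BMP list are not reported here. Rows without a gene name (124) stayed in the fit as listed genes. Alternatives were TMM, median-of-ratios and listed-gene totals as scaling, DESeq2 1.42.0, no filter, adjustment over the tested genes, a non-robust fit, a replicate block, and leaving out each rat. Promoter sequences are from RefSeq (GRCr8), and gene coordinates are those of the deposited table.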

Additional observations from a re-analysis of the deposited data

Results flagged for a closer look

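In 6 of 92 groups of 5 rats, 1 rat stood apart from the other 4 by more than Dixon's 95% critical value of 0.71, and chance gives this in about 1 in 20 groups. Normal replicate 4 was high for Klf3 (577.4 normalized counts) and low for Etv3l (0.800). Normal replicate 3 was high for Nfatc1 (444.0). Hypothermia replicate 2 was high for Elf4 (155.8), Hypothermia replicate 1 was low for Elk1 (313.5) and Hypothermia replicate 3 was low for Tcf7l2 (158.2).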

How the results depend on the processing

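The other scalings all moved fold changes downward and so could turn only genes above 0. With the listed-gene totals, 10 of the 11 genes above 0 turned negative, namely Gatad1 (-0.86), Maf (-0.59), Klf2 (-0.32), Creb3 (-0.97), Klf6 (-0.45), Jund (-0.90), Atf5 (-0.87), Pbx3 (-0.75), Mafg (-0.80) and Klf7 (-0.28), and Creb3 was -0.020 with median-of-ratios factors. The totals moved all tested genes by a median of -1.23, so these turns are no test of the genes' direction. With TMM factors the count below 0 stayed at 33. The 28 calls became 44 with DESeq2, 44 with adjustment over the tested genes, 10 with the replicate block and 0 without Normal replicates 4 and 5, where all tested genes called numbered 2938 of 3334, 3221 of 3222, 943 of 3222 and 0 of 3254. The 8 called higher became 1 with TMM, 1 with median-of-ratios, 0 with the totals, 4 with TMM and adjustment over the tested genes, 3 with the block and 0 without both rats. The 20 called lower became 33 with TMM (1104 of 3223), 33 with median-of-ratios (1101 of 3220) and 40 with the totals (2398 of 3223). They became 32 with DESeq2 (979 of 3334) and 33 with adjustment over the tested genes (1169 of 3222). With that and TMM they became 33 (1169 of 3223), with the block 7 (134 of 3222) and without both rats 0 (0 of 3254). The count of 1 past a log2 fold change of 1 or -1 was a gene called higher. It became 5 with TMM, 5 with median-of-ratios and 33 with the totals, all called lower. In both directions together it became 5 with DESeq2, 2 without the filter and 3 with adjustment over the tested genes. With that and TMM it became 6, with the block 0 and without both rats 0. Shares of all tested genes past this threshold are not given for these settings, except for TMM with adjustment over the tested genes. The median of -0.33 became -0.61 with TMM, alone or with adjustment over the tested genes, -0.64 with median-of-ratios and -1.56 with the totals. Leaving out 1 rat gave 13 to 30 calls, 5 to 9 higher and 8 to 21 lower. Over all tested genes such fits called 1377 to 2385, with 1077 to 1721 higher and 300 to 664 lower. For the transcription factors they also gave 0 to 3 calls past a log2 fold change of 1 and medians of -0.38 to -0.31. The cause of these moves was not tested. Replicate numbers do not pair the rats, whose same-number deviations correlated at -0.169 to 0.234, so the block is given only here. Etv4, Tcf7, Elk3, Eya4 and Klf2 had raw counts of 9 to 158 per rat and standard errors of 0.24 to 0.44. The part of low counts in these errors was not tested. Etv3l and Hif3a were too scarce for the test.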

Other observations

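Lists of neighbouring pathways that hold few of the 46 genes were counted as well. Of all tested genes 52.3% were called higher and 20.5% lower, and the counts of these short lists are to be read beside those shares. Of 22 Hippo genes 5 were listed and 4 were called lower, among them the angiomotin gene Amot (-0.72) and the coactivator Wwtr1 (-0.51). Of 21 FoxO and PI3K genes 7 were listed and 6 called lower, among them Pik3r1 (-0.60), a regulatory subunit of PI3K, and the cell cycle inhibitor Ccng2 (-0.56). Of 18 heat shock genes 4 were listed and 3 called higher, namely Hspb1 (1.73), Hspe1 (0.74) and Hspa8 (0.65). Of 20 clock genes the 2 listed were called in opposite directions, Per1 lower (-0.70) and Cry2 higher (0.34). Of 26 immediate early genes 6 were listed, and Klf6 and Jund were called higher while Junb and Btg2 (-0.30) were called lower.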
